A study of Mus musculus with 2 samples.

Results

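Cells at the G1/S transition were taken as the 10% of cells in each library with the highest summed level of 6 genes that peak there, Mcm3, Mcm5, Mcm6, Ccne1, Ccne2 and Cdc6. These members were thus chosen by measured expression: the UMIs (unique transcript tags) of the 6 genes in a cell, divided by all UMIs of that cell. This gave 391 of 3914 kept cells in the vehicle library and 376 of 3756 in the AG-120 library, 767 of 7670 in all. The name is a working name for a range of a score and not for a separate cell type. Because the rule reads the same RNA as the results, every gene of these cells counts as used by it, and all values below are descriptions with no test.

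The cells are I1DN leukemia progenitors of the mouse, sorted as cKit positive and Cd11b negative from animals given vehicle or AG-120 for 5 days. AG-120 is ivosidenib, an inhibitor of mutant IDH1. Each treatment has 1 library, the labels do not say how many mice it came from, and the strain, the age of the animals and the alleles behind the name I1DN are not given in the labels. Every contrast between treatments is therefore a contrast of 2 libraries with no replicate check, and every interval is a 95% interval for counting error only.

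Before a cell can copy its DNA, the origin recognition complex, Cdc6 and Cdt1 load rings of Mcm2 to Mcm7 onto replication origins, a step called licensing. Cyclin E, made from Ccne1 and Ccne2, then activates the kinase Cdk2, E2F transcription factors are released from the retinoblastoma protein, and genes for the replication fork, nucleotide supply and chromatin assembly are switched on. In blood-forming cells this transition follows growth factor signals and cell size control, and CDK inhibitors such as p27, the product of Cdkn1b, hold cells before it.

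E2F proteins bind short GC-rich words in the promoters of these genes, and genes of mitosis often carry CCAAT boxes and a word called CHR. Promoter windows from 250 bases before to 50 bases after each start, from RefSeq on GRCm38.p6, were searched on both strands for the E2F words TTTCCCGC, TTTCGCGC, TTTGCCGC and TTTGGCGC, for the CHR word TTTGAA and for CCAAT. Of the 6 gating genes 5 were in the table, and 4 of these 5 windows held an E2F word. The first 3 sequences are shown because their words lie upstream of the start, with 2 promoters of mitosis genes that were low in the same cells. Capitals mark E2F words in Mcm5, Mcm6 and Cdc6 and CCAAT words (ATTGG on the other strand) in Ube2c and Hmmr, each sequence running 5′ to 3′ along the strand of its gene and leaving out annotated exons. Overlapping words form the longer runs in Mcm5 and Mcm6. CCAAT words are marked only in Ube2c and Hmmr, but the Mcm5 and Mcm6 sequences hold them too. Of the 5 gating windows in the table, 3 held CCAAT.
Mcm5 (chr8:75109339-75109508, plus strand): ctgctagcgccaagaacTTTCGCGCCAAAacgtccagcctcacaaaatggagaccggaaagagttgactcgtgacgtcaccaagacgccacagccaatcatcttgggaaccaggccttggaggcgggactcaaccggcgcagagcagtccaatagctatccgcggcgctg
Mcm6 (chr1:128359706-128359875, minus strand): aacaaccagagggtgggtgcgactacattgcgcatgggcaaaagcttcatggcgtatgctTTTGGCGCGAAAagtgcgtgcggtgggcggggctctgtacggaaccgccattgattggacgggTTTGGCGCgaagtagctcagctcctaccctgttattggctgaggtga
Cdc6 (chr11:98907982-98908150, plus strand): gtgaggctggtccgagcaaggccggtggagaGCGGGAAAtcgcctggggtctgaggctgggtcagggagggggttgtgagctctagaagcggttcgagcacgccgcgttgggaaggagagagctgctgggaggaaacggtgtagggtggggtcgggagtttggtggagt
Ube2c (chr2:164769759-164769897, plus strand): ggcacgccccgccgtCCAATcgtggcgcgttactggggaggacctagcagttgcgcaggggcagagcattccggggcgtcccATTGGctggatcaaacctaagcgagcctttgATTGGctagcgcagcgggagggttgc
Hmmr (chr11:40733438-40733607, minus strand): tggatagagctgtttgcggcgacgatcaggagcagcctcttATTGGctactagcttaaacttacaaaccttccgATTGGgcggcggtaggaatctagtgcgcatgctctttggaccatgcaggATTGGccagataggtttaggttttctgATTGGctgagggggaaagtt

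The score ran without a gap across the cutoff in both libraries. In the vehicle library the lowest score inside the set was 1577 and the highest outside it 1575 CPM (UMIs per 1000000 UMIs), and in the AG-120 library the values were 1279 and 1278 CPM. Median scores were 1828 CPM in vehicle G1/S cells and 489 in the other vehicle cells, against 1446 and 668 CPM in the AG-120 library. The vehicle scores were spread more widely, with first and ninth deciles over all kept cells of 72.1 and 1575 CPM, against 282 and 1278 CPM in the AG-120 library. No gating UMI was seen in 339 other vehicle cells (9.62%) and 68 other AG-120 cells (2.01%). These shares depend on depth, and the other cells held medians of 13013 and 26360 UMIs. A G1/S cell held a median of 27 gating UMIs in the vehicle library (range 3 to 63) and 31 in the AG-120 library (range 1 to 82), and 3 and 12 of them had fewer than 5.

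**Figure D1:**
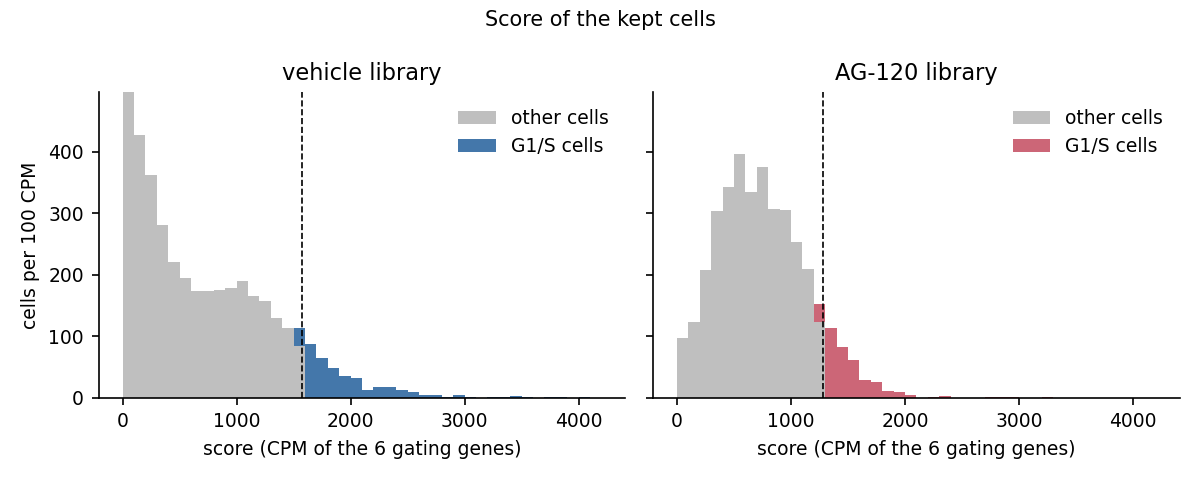
Number of kept cells per 100 CPM of the summed level of the 6 gating genes, in the vehicle library (left) and the AG-120 library (right). Colored bars are G1/S cells, grey bars are the other cells, and the dashed line is the lowest score of a G1/S cell (1577 and 1279 CPM); neither distribution has a gap at the line.

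In total the barcodes held 56821757 UMIs in the vehicle library and 96919988 in the AG-120 library. Vehicle G1/S cells had a median of 13821 UMIs against 13013 in the other vehicle cells, whereas AG-120 G1/S cells were shallower than the rest of their library, with 20673 against 26360. With every cell thinned to 6500 UMIs, 1338 AG-120 genes were higher and 941 lower by 1.2-fold, against 1365 and 630 without thinning, and the licensing and mitosis medians were 0.35 and -0.79 in log2. The libraries share 20 barcodes, 17 of them among kept cells and 0 among G1/S cells. Kit, the gene of the sorting antigen cKit, stood at 61.5 CPM in vehicle and 24.9 CPM in AG-120 G1/S cells. Itgam, which encodes Cd11b, stood at 3.39 and 0.904 CPM, below Kit in both sets of cells.

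The 6 gating genes are given first, as a description of the choice. Mcm6, a subunit of the replicative helicase, was the largest contributor, at 802 CPM in vehicle G1/S cells and 300 in other vehicle cells, and at 626 and 276 CPM in the AG-120 library. Mcm3 stood at 549 and 191 CPM in the vehicle and 363 and 172 in the AG-120 library, and Mcm5 at 352 and 119 against 293 and 134. Cdc6, the loader of the helicase, was at 104 and 26.8 CPM in vehicle and 108 and 52.2 in AG-120 cells. The cyclins were scarcer. Ccne1 was at 33.9 and 12.4 CPM in vehicle and 65.7 and 41.9 in AG-120 cells, and Ccne2 at 46.4 and 14.4 against 28.8 and 13.4.

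Whether the helicase genes and the cyclin genes mark the same cells was read by gating on one set of 3 genes and counting the other. Vehicle cells highest in Mcm3, Mcm5 and Mcm6 had 1.93-fold more Ccne1 (1.60 to 2.32), 2.24-fold more Ccne2 (1.90 to 2.63) and 2.99-fold more Cdc6 (2.69 to 3.32) than the other vehicle cells. In the AG-120 library the same gate gave 1.10-fold for Ccne1 (0.980 to 1.22), 1.45-fold for Ccne2 (1.22 to 1.72) and 1.55-fold for Cdc6 (1.42 to 1.68). The Ccne1 interval in that library includes 1. The reverse gate, on Ccne1, Ccne2 and Cdc6, gave 1.94-fold for Mcm3, 2.025-fold for Mcm5 and 1.74-fold for Mcm6 in the vehicle library. In the AG-120 library it gave 1.31-fold for Mcm3 (1.255 to 1.367), 1.275-fold for Mcm5 (1.213 to 1.339) and 1.16-fold for Mcm6 (1.119 to 1.201). The top 10% by the helicase genes and the top 10% by the other 3 had 121 of 391 cells in common in the vehicle library (31.0%) and 57 of 376 in the AG-120 library (15.2%). The 6 genes thus went together less closely in the AG-120 library as measured, and the difference between libraries was not tested.

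Across all genes, 7996 were measured in the vehicle library, meaning that they had at least 500 UMIs over its kept cells, and 8361 in the AG-120 library, both without the gating genes. A gene is called higher or lower where summed UMIs in G1/S cells differed by 1.2-fold or more from the other cells of the same library. In the vehicle library 1768 genes were higher (22.1%) and 853 lower (10.7%), with a median log2 ratio of 0.05. In the AG-120 library 1365 were higher (16.3%) and 630 lower (7.53%), with a median of 0.03. With the median gene set to a ratio of 1, the vehicle counts were 1375 and 1138. These shares are the background for the counts of list members, which the choice of cells also shapes.

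Genes of origin licensing that were not used for the choice were higher in G1/S cells of both libraries. In the vehicle library 11 of 12 measured members were higher and 0 lower, with a median log2 ratio of 0.84. In the AG-120 library 10 of 13 were higher and 0 lower, with a median of 0.36. Mcm4, another helicase subunit, stood at 284 CPM in vehicle G1/S cells and 116 in other vehicle cells, 2.46-fold (2.32 to 2.60), and at 194 and 105 CPM in the AG-120 library, 1.84-fold (1.75 to 1.95). Mcm7 was 2.51-fold and 1.70-fold higher, and Mcm2 2.27-fold and 1.69-fold. Cdt1, the partner of Cdc6 in loading, was at 121 and 53.9 CPM in vehicle cells and 158 and 97.6 in AG-120 cells. Its inhibitor Gmnn, geminin, whose protein accumulates once S phase has begun, was 1.89-fold and 1.27-fold higher.

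Subunits of the origin recognition complex had unequal ratios. Orc1, with too few UMIs in the vehicle library to count as measured, was at 20.3 and 6.33 CPM there, 3.21-fold (2.57 to 3.99), and was 1.29-fold higher in AG-120 cells (1.06 to 1.55). Orc6 was 1.71-fold higher in vehicle and 1.37-fold in AG-120 G1/S cells. Orc2 was 1.49-fold higher in vehicle cells (1.33 to 1.66) and at 1.01-fold in AG-120 cells (0.929 to 1.10). Orc5 was under 1.2-fold in both, at 1.13-fold (0.939 to 1.35) and 0.933-fold (0.842 to 1.03).

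Among the regulators of the transition, 17 of 26 measured genes were higher and 1 lower in vehicle G1/S cells (median 0.58), and 12 of 25 were higher and 2 lower in AG-120 G1/S cells (median 0.20). E2f1, an activating E2F factor, stood at 85.6 CPM in vehicle G1/S cells against 30.2 in the rest, and at 36.8 against 20.7 in the AG-120 library. E2f2 was 2.20-fold and 1.84-fold higher. E2f8, a repressor that closes the E2F program later in S phase, was 1.66-fold and 1.34-fold higher. E2f4, a factor of repressive complexes in resting cells, was at 1.11-fold in vehicle and 0.762-fold in AG-120 cells, and 0.44 higher in log2 in AG-120 cells ranked by Ccne1, Ccne2 and Cdc6 alone. Dtl, the adaptor that marks Cdt1 for destruction during S phase, was at 123 and 47.1 CPM in vehicle cells, 2.60-fold, and at 71.6 and 51.8 CPM in AG-120 cells, 1.38-fold.

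Of the kinases, Cdk2, the partner of cyclin E, was 1.52-fold higher in vehicle and 1.58-fold in AG-120 G1/S cells. Cdk4, the partner of D cyclins, was 1.37-fold higher in vehicle cells and at 1.06-fold in AG-120 cells. Cdc7, which fires licensed origins, was 2.13-fold and 1.59-fold higher, whereas its activating subunit Dbf4 was 1.42-fold and 1.38-fold lower. The catalytic and regulatory parts of that kinase thus lay on opposite sides in both libraries. Without the cells highest in a mitotic score, the vehicle Dbf4 ratio was 0.01 on the log2 scale. That score is the summed CPM of Ccnb1, Cdc20, Plk1, Aurka, Cenpf and Hmmr.

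Brakes on the cycle were mostly lower in vehicle G1/S cells and mixed in AG-120 G1/S cells. In vehicle G1/S cells 10 of 15 measured CDK inhibitors and antiproliferative genes were lower and 1 higher (median log2 ratio -0.40), and in AG-120 G1/S cells 2 were lower and 4 higher (median 0.13). The AG-120 median was -0.36 with cells ranked by Ccne1, Ccne2 and Cdc6 alone and -0.01 with the top 20% of cells taken, and the difference between libraries was not tested. Ccng2, cyclin G2, which rises in resting cells, stood at 18.4 CPM in vehicle G1/S cells against 57.2 in the others, and at 6.20 against 7.78 CPM in the AG-120 library. Cdkn2d, encoding the inhibitor p19, was at 59.2 and 108 CPM in vehicle cells and at 30.5 and 34.2 in AG-120 cells. Cdkn1b was at 29.1 and 41.3 CPM in vehicle cells and at 16.5 and 18.1 in AG-120 cells. Cdkn1a, encoding the inhibitor p21, was higher in both, 1.41-fold (1.24 to 1.59) and 1.53-fold (1.26 to 1.84). Btg2, an antiproliferative gene, was at 27.3 and 41.7 CPM in vehicle cells and at 16.4 and 9.31 CPM in AG-120 cells. With the AG-120 cells ranked by Ccne1, Ccne2 and Cdc6 alone, the Cdkn1a and Btg2 log2 ratios were -0.56 and -0.69. Brake transcripts were less abundant in the other AG-120 cells, at a sum of 404 CPM against 705 in the other vehicle cells.

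Genes of the replication fork were higher in both libraries. All 38 measured members were higher in vehicle G1/S cells (median 0.95) and 31 of 39 in AG-120 G1/S cells (median 0.45), with 0 lower. Mcm10 and Cdc45, which help turn the loaded rings into running helicases, were 2.58-fold and 2.43-fold higher in vehicle and 1.47-fold and 1.68-fold in AG-120 cells. Lig1, the ligase that joins Okazaki fragments, stood at 289 and 109 CPM in vehicle cells and 181 and 109 CPM in AG-120 cells. Dscc1, part of a loader of the sliding clamp, was 3.04-fold (2.69 to 3.42) and 1.91-fold (1.72 to 2.11) higher. The clamp itself, Pcna, was at 292 and 152 CPM in vehicle and 276 and 199 CPM in AG-120 cells. Pole, the catalytic subunit of the leading strand polymerase, was 2.78-fold and 1.37-fold higher, while its small subunit Pole3 was 1.31-fold higher in vehicle and at 0.997-fold in AG-120 cells.

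Nucleotide supply followed the fork genes. Of 12 measured genes, 10 were higher in vehicle G1/S cells (median 0.86) and 8 in AG-120 G1/S cells (median 0.40), with 0 lower in both. Rrm2, the S phase subunit of ribonucleotide reductase, stood at 295 CPM against 129 in the vehicle library and at 252 against 145 in the AG-120 library. Tyms, thymidylate synthase, was 1.83-fold and 1.33-fold higher. Under the ranking by Ccne1, Ccne2 and Cdc6, the AG-120 log2 ratio of Tyms was -0.01. Samhd1, which breaks dNTPs down, was at 0.887-fold in vehicle and 1.26-fold (1.14 to 1.38) in AG-120 cells.

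Chromatin copying and repair genes were higher too. Of 19 chromatin genes 18 were higher in vehicle (median 0.87) and 15 in AG-120 G1/S cells (median 0.45). Uhrf1, which guides DNA methylation to new strands, stood at 223 and 87.0 CPM in vehicle and 163 and 86.0 CPM in AG-120 cells. Its partner Dnmt1, the maintenance methyltransferase, was 1.83-fold and 1.29-fold higher, with an AG-120 log2 ratio of -0.03 under that ranking. Chaf1b, of the histone chaperone CAF-1, was 2.75-fold and 1.81-fold higher, and Hells, a chromatin remodeler, 2.64-fold and 1.65-fold. Tcf19, a chromatin factor first described as a late G1 gene, ranked first over both libraries by the smaller of its lower bounds, at 2.48-fold in vehicle (2.20 to 2.79) and 2.51-fold in AG-120 cells (2.17 to 2.89).

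All 25 measured checkpoint and repair genes were higher in vehicle G1/S cells (median 1.06), and 21 of 28 in AG-120 G1/S cells (median 0.42). Ung (ENSMUSG00000029591, chromosome 5, 114130386 to 114139323, GRCm38), the enzyme that removes uracil from DNA, ranked first among all vehicle genes by the lower bound of its ratio. It stood at 206 CPM in vehicle G1/S cells and 60.03 in the others, 3.43-fold (3.198 to 3.67), and at 152 and 66.8 CPM in the AG-120 library, 2.27-fold (2.13 to 2.42). Chek1, the kinase of the replication checkpoint, was 2.42-fold and 1.73-fold higher. Brca1, of homologous recombination, was 2.64-fold higher in vehicle and 1.48-fold in AG-120 cells.

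**Figure D2:**
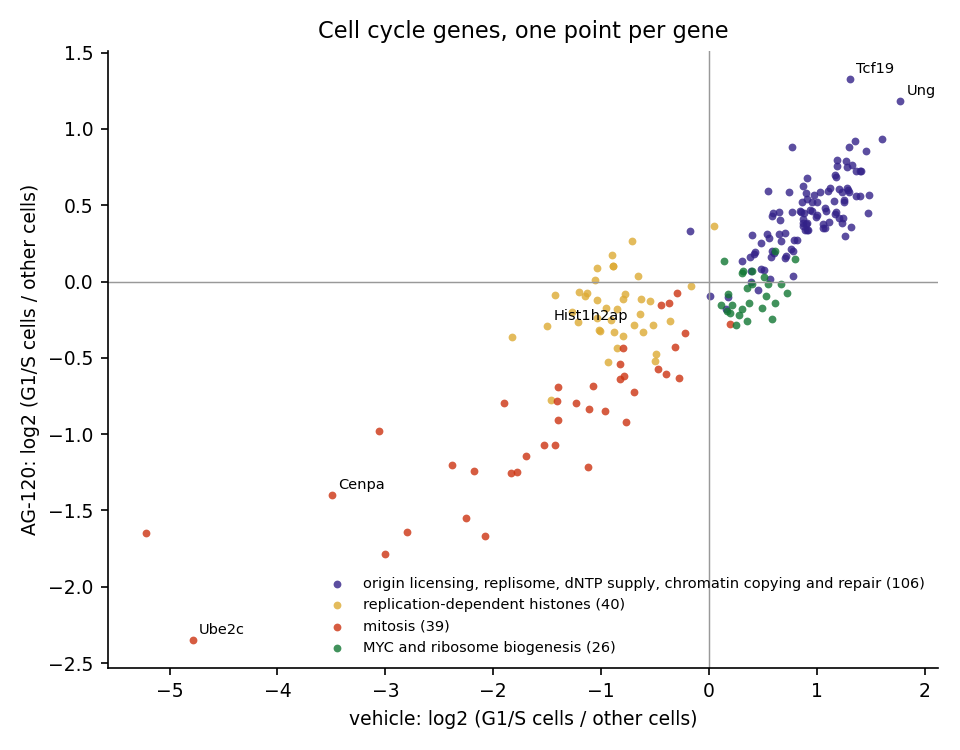
Log2 ratio of G1/S over other cells in the vehicle library (horizontal) and the AG-120 library (vertical), 1 point per gene of the lists in the key that was measured in both libraries, without the gating genes. Replication genes lie at the upper right, mitosis genes at the lower left, histone genes are low mainly along the vehicle axis, and MYC and ribosome genes are to the right of 0 with AG-120 values near 0.

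Replication-dependent histone genes, whose transcripts are made in bulk during S phase, were low in G1/S cells of each library, but not within every cluster. In the vehicle library 43 of 45 measured genes were lower and 0 higher (median -0.89), and in the AG-120 library 14 of 41 were lower and 2 higher (median -0.18). Hist1h2ap stood at 257 CPM in vehicle G1/S cells against 725 in the others, and at 421 against 515 CPM in the AG-120 library. Slbp, which binds and protects these transcripts, went the other way, at 372 and 207 CPM in vehicle and 365 and 265 CPM in AG-120 cells. Histone transcripts mostly lack a poly(A) tail, on which this chemistry primes, and near-identical copies share reads, so single histone genes are uncertain. With the vehicle cells ranked by Ccne1, Ccne2 and Cdc6 alone, Hist1h2ap was 0.25 higher in log2 and the list median was -0.07. With the other AG-120 cells weighted to the cluster mixture of the G1/S cells, the AG-120 list median was 0.02 and the Hist1h2ap ratio 0.02.

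Genes of late S phase and G2 were mixed, with 2 of 23 higher and 5 lower in vehicle G1/S cells (median -0.03) and 2 higher and 10 lower in AG-120 G1/S cells (median -0.24). Ccna2, cyclin A2, was 1.67-fold and 1.53-fold lower, but 0.30 and 0.19 higher in log2 with cells ranked by Ccne1, Ccne2 and Cdc6 alone. Mki67, the gene of the Ki-67 proliferation antigen, stood at 135 and 229 CPM in vehicle and 146 and 232 CPM in AG-120 cells. Ncapg2, a condensin subunit, was 1.99-fold and 1.45-fold higher, and Top2a, topoisomerase II alpha, was at 0.912-fold and 0.850-fold.

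Mitosis genes were low in both libraries. In the vehicle library 37 of 39 were lower and 0 higher (median -1.23), and in the AG-120 library 37 of 40 were lower and 0 higher (median -0.84). Ube2c (ENSMUSG00000001403, chromosome 2, 164769898 to 164778822, GRCm38), the ubiquitin enzyme of the anaphase promoting complex, stood at 8.74 CPM in vehicle G1/S cells and 241 in the others, 27.6-fold lower, and at 74.5 and 379 CPM in the AG-120 library, 5.09-fold lower. Cenpa, the centromere histone, was 11.3-fold and 2.64-fold lower. Ccnb2, a B cyclin, was 8.32-fold and 1.97-fold lower, and the mitotic kinase Plk1 4.21-fold and 3.17-fold. Hmmr, a spindle protein, was 6.97-fold and 3.11-fold lower, and Kif23, a motor of cell division, 8.01-fold and 3.44-fold. Mad2l1, of the spindle checkpoint, was at 1.15-fold in vehicle and 0.823-fold in AG-120 cells.

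Under the ranking by Ccne1, Ccne2 and Cdc6 alone, 25 mitosis genes were lower in each library (medians -0.40 and -0.47), and the AG-120 log2 ratios of Cenpa, Ccnb2 and Mad2l1 were 0.15, 0.04 and 0.01.

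Part of the vehicle value rested on the cells at the other end of the cycle. Without the 10% of cells highest in the mitotic score, 24 of 39 mitosis genes were lower in vehicle G1/S cells (median -0.33), and 33 of 40 in the AG-120 library (median -0.67). Only 2 vehicle and 3 AG-120 cells were in both the G1/S set and the mitotic set (0.512% and 0.798% of G1/S cells). Against the remaining cells, which are in neither set, vehicle G1/S cells had 1677 and 879 CPM of summed licensing genes, and 1095 and 1484 CPM of summed mitosis genes. In the AG-120 library these sums were 1585 and 1142 CPM for licensing and 1802 and 2953 CPM for mitosis. Mitosis sums were thus below those of the remaining cells in both libraries. The mitotic set is a fixed 10% cut of a score, so the remaining cells may still include mitotic cells.

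**Figure D3:**
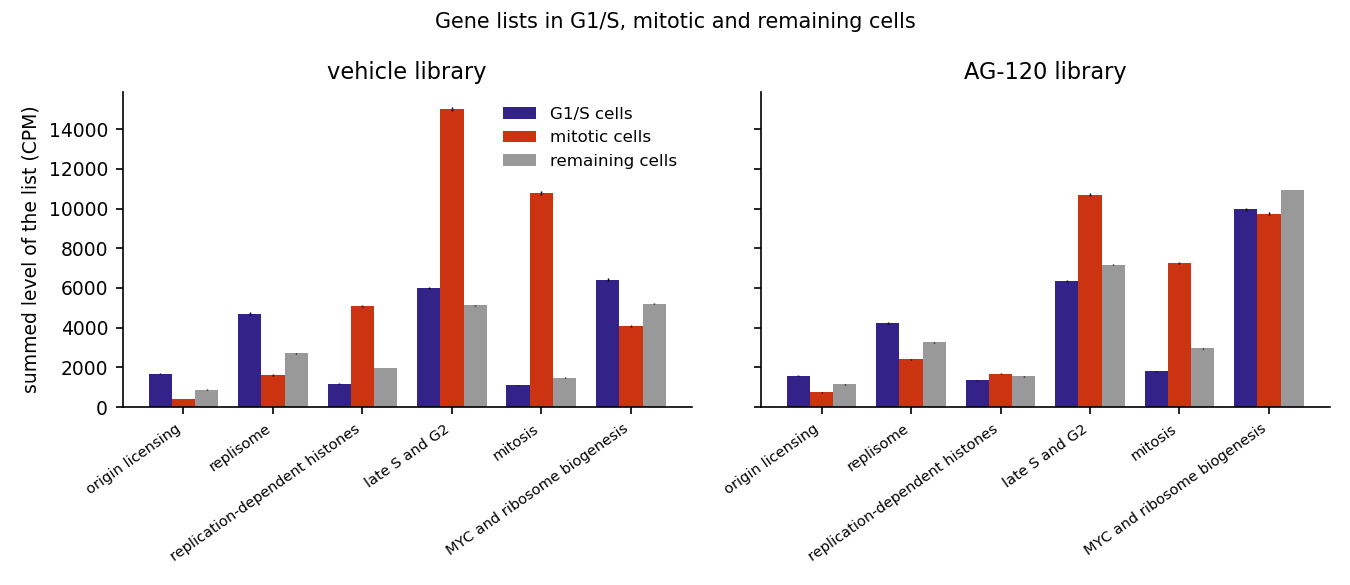
Summed level (CPM) of 6 gene lists in G1/S cells, in the 10% of cells highest in the mitotic score, and in the remaining cells, for the vehicle library (left) and the AG-120 library (right). Error bars are exact Poisson 95% intervals; the cells in both sets count as G1/S cells, and the mitotic set was chosen with genes of the mitosis list.

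Along the whole score the lists changed by different steps. The cells of each library were put into 10 bins of equal size from lowest to highest score, bin 10 being the G1/S cells. From bin 1 to bin 10 of the vehicle cells, summed licensing genes went from 280 to 1677 CPM and summed mitosis genes from 4461 to 1095 CPM. In the AG-120 library licensing went from 555 to 1585 CPM and mitosis from 5651 to 1802 CPM. Vehicle histone transcripts were highest in bin 4, at 2943 CPM, and lowest in the G1/S cells, at 1169 CPM. AG-120 histone transcripts stayed between 1483 and 1612 CPM in the lower 9 bins and were 1348 CPM in the G1/S cells. Brakes went from 1061 CPM in vehicle bin 1 to 489 in bin 7, and were 513 CPM in the G1/S cells.

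**Figure D4:**
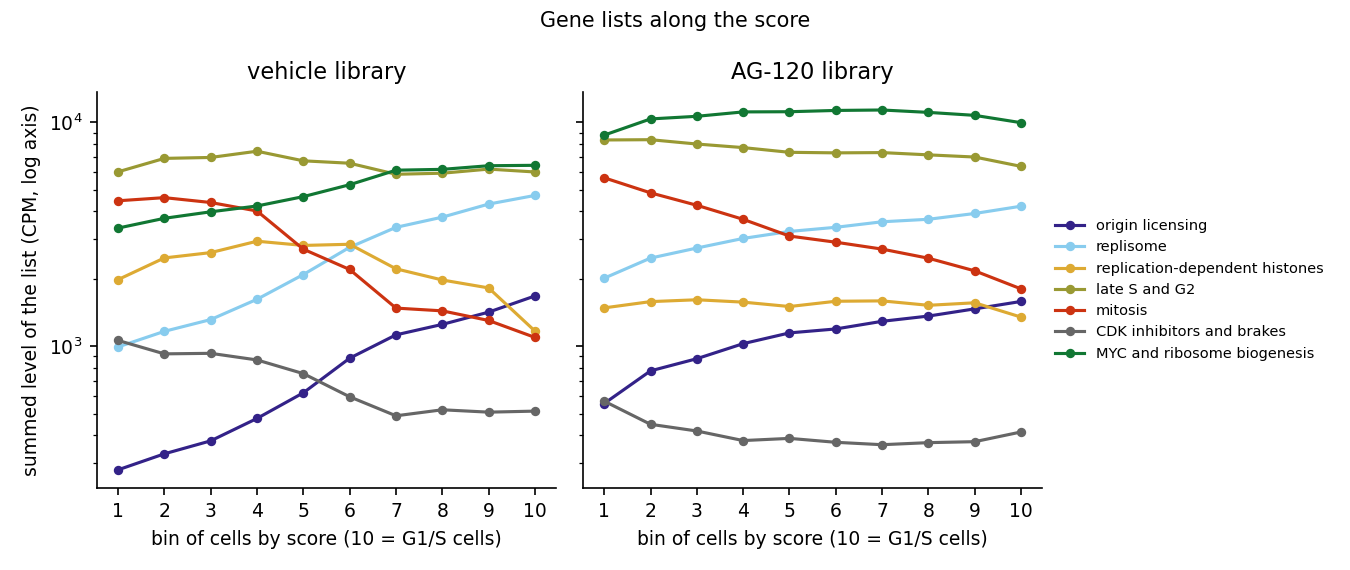
Summed level (CPM, log axis) of 7 gene lists in 10 bins of the cells ordered by the score, for the vehicle library (left) and the AG-120 library (right); bin 10 is the G1/S cells. Licensing and replisome lines climb to bin 10 in both panels and mitosis lines descend (from bin 2 on in the vehicle cells), while histone levels peak in bin 4 of the vehicle cells and are nearly flat up to bin 9 in the AG-120 cells.

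Growth genes were higher in vehicle G1/S cells and not in AG-120 G1/S cells. Of 26 MYC target and ribosome biogenesis genes, 19 were higher and 0 lower in vehicle G1/S cells (median 0.36), and 0 were higher and 1 lower in AG-120 G1/S cells (median -0.09). Nop56, a core protein of small nucleolar RNPs, stood at 254 and 159 CPM in vehicle and 275 and 278 CPM in AG-120 cells. Ncl, nucleolin, was at 1073 and 832 CPM in vehicle and 1482 and 1632 CPM in AG-120 cells. The list sum in AG-120 G1/S cells, 9958 CPM, was above that of vehicle G1/S cells, 6425 CPM, and the other AG-120 cells stood at 10791 CPM. Along the AG-120 score the sum was highest in bin 7, at 11348 CPM.

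Between the libraries, the replication lists did not behave alike. Summed licensing genes were 0.945-fold in AG-120 relative to vehicle G1/S cells (0.920 to 0.971), and 1.34-fold in the other cells (1.33 to 1.36). For the replisome list the ratios were 0.895-fold and 1.23-fold, and for nucleotide supply 1.02-fold and 1.42-fold. For chromatin copying they were 0.756-fold and 1.01-fold, for checkpoint and repair 0.727-fold and 1.05-fold, and for the regulators of the transition 0.884-fold and 1.04-fold, so in these lists the G1/S cells were further apart than the other cells. Histone sums were 1.15-fold in G1/S cells and 0.651-fold in the other cells. Mitosis sums were 1.65-fold (1.60 to 1.70) in G1/S cells and 1.26-fold in the others, so AG-120 G1/S cells carried more mitosis transcripts than vehicle G1/S cells. The cutoff lay lower in the AG-120 library, and the cell mixtures differ, so these ratios describe sets cut within each library.

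Over the 7604 genes measured in both libraries, 491 were higher in G1/S cells of both and 197 lower in both, while 40 were higher in vehicle and lower in AG-120 and 94 the reverse. Among these genes 22.3% were higher and 9.89% lower in vehicle G1/S cells, and 16.1% and 6.29% in AG-120 G1/S cells. Across these genes the log2 ratios of the 2 libraries had a Pearson r of 0.49 and a Spearman rho of 0.31, which is a description over genes and not over replicates. Of the 38 replisome genes measured in both, 30 were higher in both, and of 39 mitosis genes 34 were lower in both. Of the 26 MYC and ribosome genes 0 were higher in both.

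Promoter words were counted in these groups as a description. E2F words were in 58 of the 389 promoters matched among genes higher in both libraries (14.9%), against 5.51% of 6076 promoters of genes measured in both and 2.61% of all 27025 genes in the table. They were in 6 of 11 licensing promoters, 10 of 29 replisome promoters and 0 of 35 mitosis promoters, but also in 0 of 11 nucleotide supply promoters and in 5 of 18 promoters of the mixed late S and G2 list. The CHR word was in 68 of 143 promoters of genes lower in both (47.6%), against 14.6% of promoters of genes measured in both and 20.2% of all, in 21 of 35 mitosis promoters and in 15 of 18 late S and G2 promoters. CCAAT was in 60.8% of the promoters lower in both and in 41.1% of all, with 77.1% in the mitosis, 77.8% in the chromatin copying and 63.6% in the licensing list. In Ube2c a CHR word on the other strand begins 29 bases before the start, within an annotated exon that is not printed above.

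The G1/S cells were spread unevenly over clusters of cells, which were made without the listed cell cycle genes. The clusters still differed in cycle genes. Summed mitosis genes of the other cells were at 458.5 CPM in vehicle cluster 0 and 4838 CPM in cluster 6. In AG-120 clusters 1 and 4 they were at 1929 and 5530 CPM. The shares below therefore cannot be read as differences of cell type alone. In the vehicle library the G1/S cells made up 18.1% of cluster 5 (15.2 to 21.3, 120 of 663 cells), which is megakaryocyte-like. They made up 16.0% of cluster 3 (13.5 to 18.8, 125 of 781), which is unnamed and led by Igfbp7 and Cd34. They made up 3.60% of the unnamed cluster 0 (2.61 to 4.84, 42 of 1166), led by Tox, and 1.99% of cluster 8 (0.803 to 4.05, 7 of 352), megakaryocyte-like with mitotic genes among those that lead it. In the AG-120 library the erythroid-like cluster 1 held 180 of the 376 G1/S cells and had a share of 19.5% (17.0 to 22.2, of 924 cells). The erythroid-like clusters 2, 4 and 7 had shares of 4.32%, 5.05% and 6.39%, and the granulocyte-monocyte progenitor-like cluster 9 had 12.05% (8.75 to 16.0, 40 of 332). The 36 AG-120 cells of the megakaryocyte-like cluster 5 had a share of 30.6% (16.4 to 48.1, 11 cells). Of the neutrophil-like cells 0 of 31 were G1/S cells in the vehicle library, with an upper bound of 11.2%, and 1 of 21 in the AG-120 library. Nearly every large cluster came from 1 library, so clusters were not compared between treatments.

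**Figure D5:**
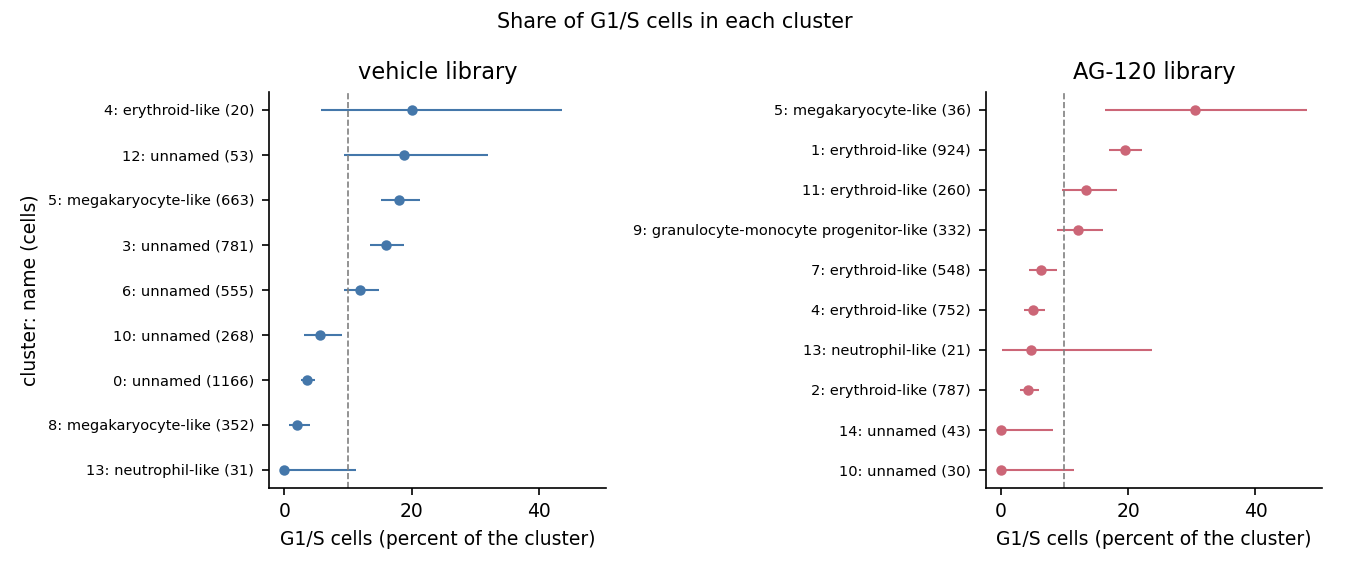
Percent of the cells of each cluster that are G1/S cells, with exact Clopper-Pearson 95% intervals, for clusters with at least 20 cells in the vehicle library (left) or the AG-120 library (right). The dashed line is the 10% that the rule sets for each whole library; clusters 5 and 3 in vehicle and clusters 1 and 5 in AG-120 lie above it with their whole intervals.

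Within clusters the licensing genes kept their direction. Vehicle G1/S cells had 3.33-fold more summed licensing UMIs than the other cells of cluster 0 (3.09 to 3.59), and 1.67-fold, 1.83-fold and 1.88-fold in clusters 3, 5 and 6. In the 6 AG-120 clusters with at least 20 G1/S cells the ratios ran from 1.31-fold to 1.75-fold. Mitosis genes did not keep one direction. In vehicle clusters 5 and 6 they were at 0.551-fold and 0.437-fold in G1/S cells, but at 1.15-fold in cluster 3 and 1.52-fold (1.35 to 1.70) in cluster 0. In the AG-120 clusters they ran from 0.468-fold to 0.816-fold. Histone sums did not keep one direction either. In AG-120 clusters 2, 4, 7 and 11 the histone sums were at 1.08-fold, 1.16-fold, 1.21-fold and 1.12-fold in G1/S cells. They were at 0.926-fold in AG-120 cluster 1 and 0.626-fold in cluster 9. In vehicle clusters 0, 5 and 6 they were at 0.702-fold, 0.514-fold and 0.529-fold, but at 1.10-fold in cluster 3.

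Markers of other cell types moved with the set as well. In vehicle G1/S cells 7 of 8 neutrophil markers were lower and 1 higher (median -6.095), with a list sum of 110 CPM against 2112 CPM in the others. The marker Cxcr2 alone made up 69.0 of the 110 CPM. In AG-120 G1/S cells 6 of 7 measured neutrophil markers were lower and 0 higher (median -1.498), with sums of 363 and 539 CPM. The 363 CPM rested on few cells. In G1/S cells of AG-120 clusters 1, 2, 4, 7 and 11 the sum was between 0 and 2.63 CPM. In the 40 G1/S cells of cluster 9 it was 355 CPM. Camp, a granule peptide gene, was at 1.43 and 182 CPM in the vehicle library and at 0.645 and 23.9 CPM in the AG-120 library. Without clusters 10 (led by Prg2 and MHC class II genes), 13 (neutrophil granule genes) and 14 (led by Prss34 and Ms4a2), the vehicle neutrophil median was 0.40 in log2 and the Camp ratio 0.92. The AG-120 Camp ratio was 0.95 with the top 20% of cells taken, and the AG-120 neutrophil median was 0.40 with the helicase genes and 0.43 with Ccne1, Ccne2 and Cdc6 as the ranking genes. Megakaryocyte markers summed to 843 and 885 CPM in vehicle and 105 and 80.4 CPM in AG-120 cells. Within the megakaryocyte-like vehicle cluster 5 these sums were 1547 CPM in G1/S cells and 2774 in the others, 0.558-fold (0.534 to 0.582). In vehicle clusters 0, 3 and 6 they were at 1.12-fold, 1.13-fold and 1.27-fold. T cell markers held 5 UMIs in all vehicle G1/S cells and 3 in all AG-120 G1/S cells.

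In AG-120 G1/S cells all 3 measured markers of stem and uncommitted progenitors were higher (median 0.98), whereas 0 of 4 were higher or lower in vehicle G1/S cells. Meis1, a HOX partner, stood at 33.6 and 15.8 CPM in AG-120 cells and at 263 and 222 CPM in vehicle cells. Angpt1, a vascular ligand gene expressed by progenitors, was 1.98-fold higher in AG-120 and at 1.19-fold in vehicle cells. With the AG-120 cells ranked by Ccne1, Ccne2 and Cdc6 alone, the Meis1 and Angpt1 ratios were -1.21 and -1.38 in log2, and the list median was -1.21. With the other AG-120 cells weighted to the cluster mixture of the G1/S cells, the list median was 0.48, and Cd34, the third marker, was at -0.07 against 0.39 without the weighting.

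Erythroid markers summed to 385 and 518 CPM in vehicle and to 2850 and 3028 CPM in AG-120 cells. Within that list 6 of 9 measured markers were lower in vehicle G1/S cells and 1 higher, and 4 of 13 were higher in AG-120 G1/S cells and 1 lower. The vehicle list median of -0.44 was 0.0065 in cells thinned to 6500 UMIs, 0.0067 without the 5% of cells with the most UMIs and 0.0604 with cells ranked by Ccne1, Ccne2 and Cdc6 alone. The adult beta globin gene Hbb-bt was 1.80-fold lower in vehicle and 2.38-fold higher in AG-120 G1/S cells, and its near-identical neighbor Hbb-bs, with which it can share reads, 2.02-fold lower and 1.52-fold higher. Thinned to 6500 UMIs, the vehicle Hbb-bs log2 ratio was 0.0065. Hbb-bt was 0.15 higher in log2 in the vehicle library, and Hbb-bs 0.07, with every barcode counted, and the AG-120 ratio of Hbb-bs was then -1.02. Of 12 measured type I interferon response genes 10 were higher in AG-120 G1/S cells (median 0.41), against 0 of 7 in vehicle cells, where 2 were lower. Within AG-120 clusters the interferon sum did not keep one direction. It was at 0.985-fold (0.936 to 1.036) in cluster 1, 0.765-fold in cluster 2 and 0.950-fold (0.831 to 1.083) in cluster 9. In clusters 4, 7 and 11 it was at 1.135-fold, 1.18-fold and 1.29-fold. Isg15, an interferon-induced ubiquitin-like protein gene, stood at 70.5 and 52.4 CPM in AG-120 and 8.56 and 14.5 CPM in vehicle cells.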

How the data were processed

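Single-cell RNA libraries of sorted mouse cells were read, 1 per treatment. The deposited files hold raw UMI counts per gene and barcode, per the file headers; the submitters' processing notes name Cell Ranger 3.1.0, Seurat 4.0.4 and the mm10/GRCm38 build, while version 3.0.2 of the software stands in the file headers. The labels' protocol names a 5′ kit and the design text a 3′ platform, so the chemistry is uncertain. The barcode filter is not given in the sources used here.

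A barcode was kept if it had 500 or more detected genes and no more than 10% of its UMIs from mitochondrial genes. No doublets were removed. Cells were scored by the 6 gating genes, and the top 10% of each library formed the G1/S cells. UMIs of 31053 genes were summed over G1/S cells and over the other cells and divided by total UMIs without the 6 gating genes (CPM). The score of a cell was divided by all of its UMIs. Ratios carry exact conditional binomial 95% intervals, sums exact Poisson ones and shares Clopper-Pearson ones. These cover counting error only, and the intervals treat UMIs as independent. A gene needed 500 UMIs in a library, and a ratio of 1.2 was called. With 1 library per treatment no test was possible, so no p-value was computed. Clusters used scanpy 1.11.5 and leidenalg 0.10.2 without 440 cell cycle, growth, sex-linked, histone, mitochondrial and ribosomal genes. Steps were tested on simulated data.

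Members and gene lists were chosen with earlier results of these data known. Genes were named by a rule: in each library the 12 highest and 12 lowest by the bound nearest to a ratio of 1, likewise 12 higher and 12 lower in both, up to 12 members of each cell cycle or growth list and 6 of each marker list, the gating genes, Idh1, Kit and Itgam. The ranking skipped clone-based gene models, sex-linked genes and those of mitochondria and ribosomal proteins. Only some of these appear in the text, and a few are not reported here. Cdk2, Cdk4, Cdc7, Dbf4, Pcna, Pole3, Hist1h2ap and Hbb-bs fall outside the rule and were chosen after their values were seen.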

Additional observations from a re-analysis of the deposited data

Results flagged for a closer look

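Some results had opposite directions in the 2 libraries, and none of these differences was tested, since each treatment has 1 library. The median log2 ratio of G1/S over other cells for basophil, mast cell and eosinophil markers was 0.29 in the vehicle and -1.68 in the AG-120 library. These medians are over different genes, 3 of 9 markers in the vehicle and 7 in the AG-120 library, and the vehicle value was -0.0304 with 200 UMIs required and -0.0924 with cells ranked by Ccne1, Ccne2 and Cdc6 alone. Over all settings the AG-120 value ran from -7.54 to -0.0395. Clusters 10 and 14 are each led by some of these markers. Of their AG-120 cells, 0 of 30 and 0 of 43 were G1/S cells. For Btg2, an antiproliferative gene, the log2 ratios were -0.61 and 0.82. For the globin genes Hbb-bt and Hbb-bs they were -0.85 and 1.25, and -1.01 and 0.60. For Isg15, an interferon response gene, they were -0.76 and 0.43.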

How the results depend on the processing

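No paired analysis was possible because each treatment has 1 library, and for the same reason no replicate could be left out. Of the counts of genes recomputed under the alternatives, 152 stayed within 1.5 times their value and 18 moved further. Stricter filters and folds leave fewer genes by construction, and the cause of the other moves was not tested. Taking the top 5% of cells gave 2758 higher vehicle and 972 lower AG-120 genes, and the top 20% gave 364 lower AG-120 genes. Scoring by Ccne1, Ccne2 and Cdc6 gave 1396 lower vehicle genes, and 889 higher and 1238 lower AG-120 genes. Without the cells highest in the mitotic score 24 mitosis genes were lower in the vehicle library. Requiring 2000 UMIs left 737 higher and 311 lower vehicle genes, with 24 lower mitosis genes, and 520 and 300 AG-120 genes. A fold of 1.5 left 381 higher and 234 lower vehicle genes, and 243 and 133 AG-120 genes, with 4 licensing and 11 replisome genes higher in AG-120 cells.

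Of genes and list medians that differed by 1.2-fold or more, 43 values turned in direction, all as log2 ratios, for causes that were not tested. Values under 1.2-fold changed sign too, 27 times for list medians and 36 times for genes, among them the AG-120 brake, histone and erythroid medians (up to -0.36, 0.02 and 0.82) and the vehicle late S and G2 median (up to 0.31). Scored by Ccne1, Ccne2 and Cdc6, the vehicle library gave 0.0604 for the erythroid and -0.0924 for the basophil median, 0.25 for Hist1h2ap and 0.30 for Ccna2. The AG-120 library then gave medians of -1.29 for megakaryocyte, 0.43 for neutrophil and -1.21 for stem markers, and for genes 0.44 (E2f4), -0.56 (Cdkn1a), -0.69 (Btg2), -0.0131 (Tyms), -0.0275 (Dnmt1), 0.19 (Ccna2), 0.15 (Cenpa), 0.0399 (Ccnb2), 0.0101 (Mad2l1), -1.21 (Cd34), 1.499 (Camp), -1.21 (Meis1) and -1.38 (Angpt1). Scored by Mcm3, Mcm5 and Mcm6 it gave 0.40 for the neutrophil median and 2.30 for Camp, and with the top 20% of cells 0.95 for Camp. Thinned to 6500 UMIs, the vehicle erythroid median and Hbb-bs were 0.0065, the AG-120 megakaryocyte median was -0.0705 and AG-120 Kit 0.10. With other cells weighted to the cluster mixture, vehicle values were 0.0676 for the granulocyte-monocyte progenitor median and 0.56 for Camp, and AG-120 values -0.21 for the megakaryocyte median, 0.0232 for Hist1h2ap and -0.0693 for Cd34. Vehicle Dbf4 was 0.0082 without cells highest in the mitotic score, and the vehicle basophil median -0.0304 with 200 UMIs required. With every barcode, Hbb-bt and Hbb-bs were 0.15 and 0.066 in vehicle cells, and Hbb-bs and Kit -1.02 and 0.00072 in AG-120 cells. Without the 5% of cells with the most UMIs the vehicle erythroid median was 0.0067. Without clusters 10, 13 and 14 the vehicle granulocyte-monocyte progenitor and neutrophil medians were 0.22 and 0.40, vehicle Camp 0.92 and AG-120 Ms4a2 0.47.

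Leaving out cells under 5000 UMIs, or clusters 10, 13 and 14, was chosen after seeing the data. Depth limits low genes and cells with few gating UMIs, and near-identical genes share reads.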
